A study of Mus musculus with 6 samples.

Results

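Genes of DNA replication and S phase were followed in blood-forming cells of the mouse embryo at embryonic day 10.5. They were 33 genes in all, of 47517 annotated gene symbols. They were taken from a named list of replication licensing, replication fork, nucleotide supply, chromatin assembly and uracil repair genes and not from their values. Earlier results of these data were known when the list was chosen. The cells came from C57BL/6 embryos with a tdTomato reporter knocked into the Hlf locus, a gene of blood stem and progenitor cells. A cell sorter kept those positive for the reporter and c-Kit and negative for CD45. The 3 libraries of cells from the embryo's caudal-half region (called caudal) and the 3 yolk sac libraries shared this stage, strain, genotype and sort, and each was made from a lysate of 100 cells. No source used here says how many embryos gave the cells or whether the replicates were separate pools. P-values therefore set differences against only the spread between these libraries, which may be technical.

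A cell licenses its replication origins in G1, when the origin recognition complex, Cdc6 and Cdt1 load rings of MCM proteins onto DNA. In S phase Cdc45 and the GINS proteins turn these rings into active helicases, and polymerases, the sliding clamp PCNA and its loader RFC follow. Most of these genes are transcribed in late G1 and S phase under E2F transcription factors, so their transcripts are widely used as a sign of proliferating cells. Blood cells newly formed from endothelium at midgestation are known to divide.

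Promoters of E2F-controlled genes often hold the letters TTTCCCGC, TTTCGCGC, TTTGCCGC or TTTGGCGC, and these were searched on both strands because the rule for the list did not use sequence. RefSeq promoter sequences (GRCm38.p6, 250 bases before to 50 after a start site) were found for 28 of the 33 genes, and not for Gmnn, Mcm4, Gins1, Gins2 and Pole. At least 1 match was present for 11 of the 28 genes (39.3%), against 2.60% of all 27025 genes in the table and 5.0% of the 8845 that were also expressed enough to be tested here. The 11 were Orc1, Cdc6, Cdt1, Mcm3, Mcm5, Mcm6, Mcm7, Pola1, Pold1, Rfc3 and Lig1. Among 52 other replication genes with a promoter sequence 16 held a match (30.8%), and among 22 genes of G2 and mitosis 1 did (4.55%). The letters CCAAT, bound by the factor NF-Y, were found for 17 of 28 genes (60.7%), 41.1% of all genes and 42.7% of those tested. They were in 28 of the 52 other replication genes (53.8%) and in 18 of the 22 genes of G2 and mitosis (81.8%). A match is a description of the letters and not evidence of a bound site. Stretches around matches that lie before the start site and outside every annotated exon were found for Mcm6, Mcm5, Pola1 and Cdc6. The expression of these genes is described below. The stretches of the first 3 are shown, with the E2F letters in capitals, and that of Cdc6 is not.
Mcm6 (chr1:128359715-128359845, minus strand): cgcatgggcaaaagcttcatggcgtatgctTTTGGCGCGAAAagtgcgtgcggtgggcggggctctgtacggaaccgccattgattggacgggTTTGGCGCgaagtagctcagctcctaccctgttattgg
Mcm5 (chr8:75109326-75109397, plus strand): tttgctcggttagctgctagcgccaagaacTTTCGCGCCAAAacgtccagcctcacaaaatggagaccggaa
Pola1 (chrX:93632256-93632323, minus strand): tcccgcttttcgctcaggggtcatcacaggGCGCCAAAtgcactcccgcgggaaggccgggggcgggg
In Mcm6 and in Mcm5 2 matches on opposite strands overlap in 1 run of capitals, and Mcm6 holds a further match closer to its start.

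All 33 genes were expressed in every library of both tissues, and no gene differed between the tissues by the test used. Levels are in TPM, an abundance scaled for transcript length and for each library. Comparisons between different genes are approximate, since unnamed loci in the deposited files were left out and the use of strand is not given. Mean levels over the 6 libraries ran from 12.2 TPM for Gins1 to 178 TPM for Mcm3, with a median of 41.0 TPM, against a median of 8.06 TPM over the 16436 genes tested. Pcna and Mcm2, the markers of the group, were at 91.2 TPM or more and 44.3 TPM or more in every library. A difference is the caudal mean less the yolk sac mean of log2(TPM + 1), and its test is from limma with Benjamini-Hochberg adjustment over all tested genes. By that test 0 of 33 genes passed an adjusted p of 0.05, where 63 of all tested genes did (0.383%). Of those, 57 (0.347%) were higher in caudal cells and 6 (0.0365%) in yolk sac cells. At an unadjusted p under 0.05 there was 1 gene, Lig1, and 9.63% of all tested genes. The median difference was 0.13, with 24 of 33 genes positive, beside a median of 0.09 and 62.0% positive over all tested genes. No gene of the 33 had its 3 caudal values all above or all below its 3 yolk sac values, which held for 11.5% and 4.14% of all tested genes.

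**Figure D1:**
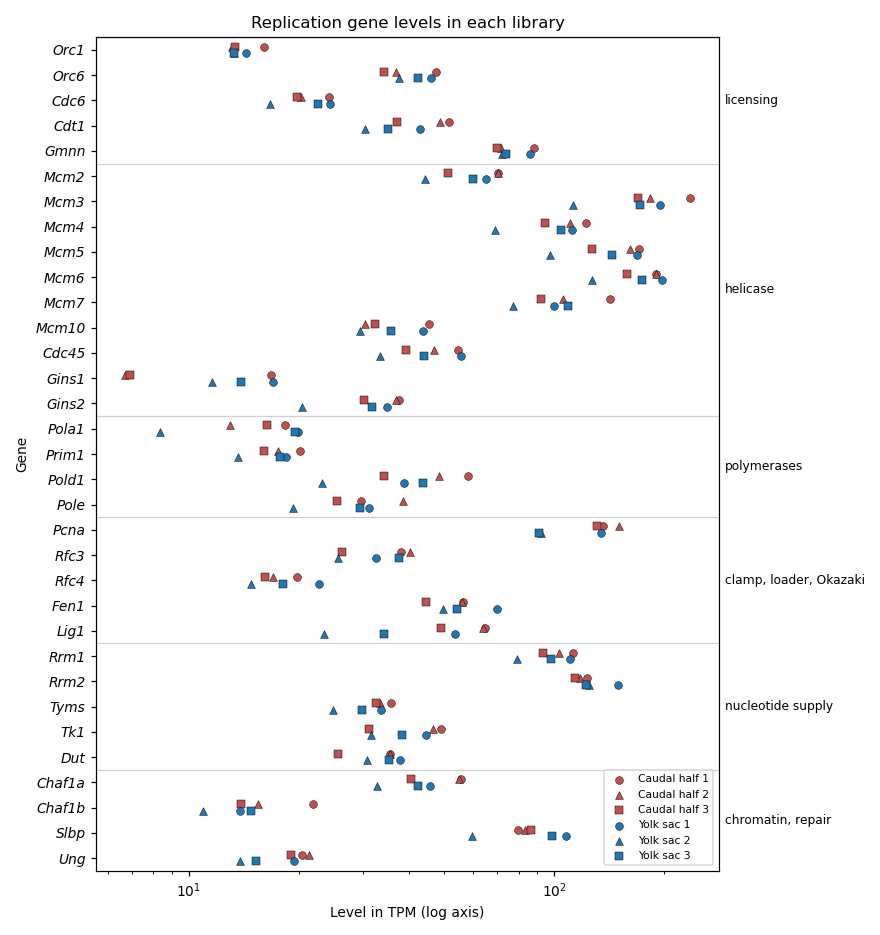
Level of each of the 33 genes in TPM (log axis) in the 3 caudal (red) and 3 yolk sac (blue) libraries, with 1 marker per library and the genes grouped by role. For each gene the colours overlap, and yolk sac replicate 2 (blue triangle) is the lowest point for 24 of 33 genes.

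Yolk sac replicate 2 stood apart from the other libraries, and the small positive median was not seen without it. It was the lowest of the 6 libraries for 24 of the 33 genes (72.7%) and below both other yolk sac libraries for 31 (93.9%), against 44.96% and 60.04% of all tested genes. Its level divided by the mean of the other yolk sac libraries had a median of 0.74 over the 33 genes, from 0.42 for Pola1 to 0.96 for Orc1, and a median of 0.80 over all tested genes. Caudal replicate 1 was the highest library for 19 genes and yolk sac replicate 1 for 10. Caudal replicate 3 was the lowest for 6 genes and among the 2 lowest for 23. These positions depend on the scaling, since annotated genes summed to 555230 TPM in caudal replicate 3 and 684549 TPM in yolk sac replicate 1. As a share of annotated TPM, the 33 genes made up 0.358%, 0.316% and 0.323% in caudal replicates 1, 2 and 3. In yolk sac replicates 1, 2 and 3 the share was 0.320%, 0.239% and 0.321%, so replicate 2 stayed the lowest. Without yolk sac replicate 2 the median difference of the 33 genes was -0.02, with 16 positive and 17 negative, beside a median of 0.02 and 52.4% positive over all tested genes. In that comparison limma again called 0 of 33 genes, with 0 at an unadjusted p under 0.05 (9.22% of all tested genes), while 0.335% of all tested genes were called higher in caudal cells and 0.0365% higher in yolk sac cells.

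The library that stood apart also held transcripts of other cells. Of 10 endoderm markers (such as Afp and Apob, from the epithelium that lines the yolk sac), all reached 1 TPM in yolk sac replicates 1 and 2, and Trf alone did in each other library. Yolk sac replicates 1, 2 and 3 had summed levels of 731, 12938 and 12.98 TPM, and the caudal libraries 20.6 to 31.6 TPM. They made up 2.10% of the annotated TPM of yolk sac replicate 2. Summed levels of 9 erythroid markers were 1607 TPM there and 5.54 to 17.1 TPM elsewhere. All 9 reached 1 TPM there, and 2 or 3 did in each of the other libraries. Hbb-y, the highest of them, was at 722 TPM there and 1.39 to 10.5 TPM elsewhere. Of 7 blood progenitor markers (Kit, Hlf, Runx1, Gata2, Myb, Spi1 and Ptprc), the sum was 159 TPM in yolk sac replicate 2, 328 and 373 TPM in replicates 3 and 1 and 385 to 539 TPM in the caudal libraries. Kit, Hlf (by its reporter) and Ptprc, which encodes CD45, are also the genes of the sort. Endothelial markers summed to 263 to 362 TPM in the caudal and 53.6 to 151 TPM in the yolk sac libraries. Each of the 7 endothelial markers was higher in every caudal than in every yolk sac library, and Cdh5 passed limma's test (difference 2.53, adjusted p = 0.0114). The 6 macrophage markers summed to 5.57 to 11.4 TPM, most of it Csf1r, and C1qa was at 0 in all 6 libraries. Mrc1, a mannose receptor on this list, was at 0.15, 0.12 and 0.24 TPM in the caudal and 2.53, 2.80 and 3.12 TPM in the yolk sac libraries. It was called higher in yolk sac cells by limma (difference -1.70, adjusted p = 0.0192, and 0.0351 without yolk sac replicate 2). The rest of the list did not follow Mrc1. Csf1r overlapped between tissues (difference -0.20, limma adjusted p = 0.841), as did Fcgr1. Adgre1 and C1qb were at most 0.134 TPM in any library. The part of these cells in the values of the replication genes was not tested. In such bulk samples fewer cells in S phase and less RNA per cell cannot be told apart.

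**Figure D2:**
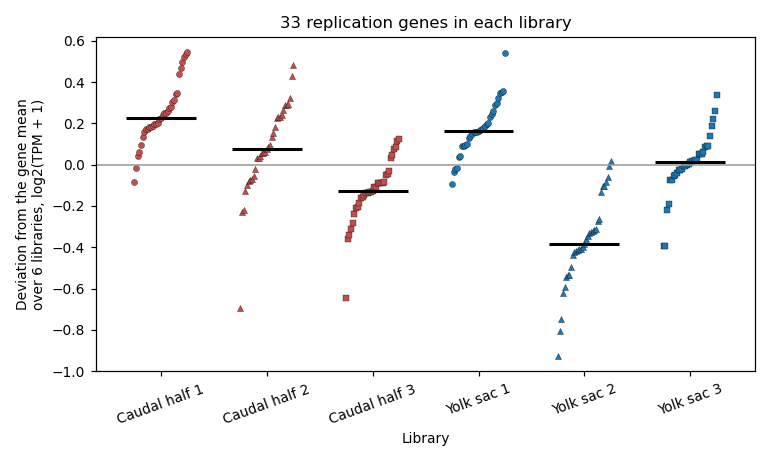
Deviation of each of the 33 genes from its mean over the 6 libraries, on the log2(TPM + 1) scale, with 1 point per gene, ordered by value within each library, and a bar at the median. Medians are 0.22, 0.08 and -0.13 in caudal replicates 1, 2 and 3 and 0.16, -0.39 and 0.01 in yolk sac replicates 1, 2 and 3.

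Of the origin licensing genes, Cdt1 had the largest difference and Gmnn nearly none. Cdt1, which loads the MCM ring, was at 51.5, 48.7 and 37.3 TPM in caudal replicates 1, 2 and 3. The yolk sac replicates, in the same order as for every gene below, had 43.0, 30.3 and 35.1 TPM. The 2 highest values were caudal and the 2 lowest were from the yolk sac, but the groups overlapped. Its log2 difference was 0.33, with a 95% interval of -0.14 to 0.80 and a limma adjusted p of 0.664. Gmnn encodes geminin, the inhibitor that binds Cdt1 after S phase has begun. It was at 87.9, 71.6 and 70.0 TPM in the caudal and 86.1, 72.2 and 73.9 TPM in the yolk sac libraries. Replicate 1 was highest in both tissues, and the difference was -0.02 (interval -0.41 to 0.37). Orc1, the largest subunit of the origin recognition complex, had the smallest ratio of highest to lowest library of the 33, at 13.1 to 16.1 TPM. Orc6, another subunit, was at 34.2 to 47.5 TPM, and Cdc6, the ATPase that acts with Cdt1, at 16.7 to 24.4 TPM. Their differences lay between -0.09 and 0.05, and limma adjusted p of the 5 licensing genes was 0.664 to 0.982.

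The MCM genes, which encode the 6 subunits of the replicative helicase, were among the most abundant of the 33. Mcm3 was at 236, 184 and 170.3 TPM in the caudal and 194, 113 and 171 TPM in the yolk sac libraries. Mcm6 was at 191, 190.3 and 159 TPM in the caudal and 197, 127 and 174 TPM in the yolk sac libraries. For both genes the values of yolk sac replicates 1 and 3 lay among or next to the caudal values, and yolk sac replicate 2 lay below all others. Mcm2 was lower, at 70.4, 70.3 and 51.2 TPM in the caudal and 65.0, 44.3 and 60.2 TPM in the yolk sac libraries. Mcm5 ran from 97.3 to 171 TPM, Mcm4 from 69.1 to 122 TPM and Mcm7 from 77.1 to 143 TPM, each with its lowest value in yolk sac replicate 2. Summed over the 6 genes, the level was 933, 822 and 694 TPM in the caudal and 838, 528 and 763 TPM in the yolk sac libraries, which overlapped.

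**Figure D3:**
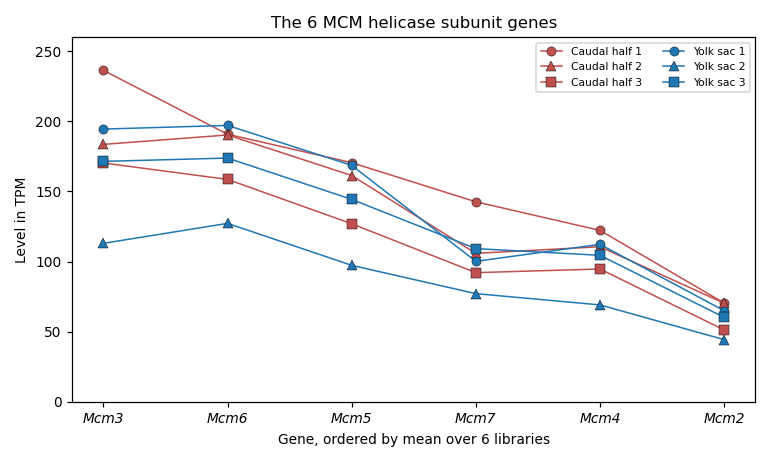
Levels in TPM of the 6 MCM subunit genes in each library, caudal in red and yolk sac in blue, with lines joining the values of 1 library. The highest gene is 2.71 to 3.36 times the lowest in every library, and yolk sac replicate 2 is the lowest line throughout.

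The order of the MCM genes was much the same in each library. Mcm3 and Mcm6 took the first 2 places, Mcm5 the third, Mcm4 and Mcm7 the next 2 and Mcm2 the last in all 6 libraries. Neighbours in the first 2 places changed places between libraries, as did Mcm4 and Mcm7, so these pairs were not separated. The ratio of the highest to the lowest was 2.71 to 3.36 although the 6 proteins form a ring with 1 copy of each. Log2 differences of the 6 genes between tissues were 0.13 for Mcm6 to 0.32 for Mcm3, with limma adjusted p of 0.714 to 0.869. Without yolk sac replicate 2 they were -0.05 to 0.09. Part of the exons of Mcm7 (12.6% of its exon length) overlaps other annotated genes, among them Ap4m1 and Cops6, so its reads are less certain.

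Of 4 genes that act with the MCM ring, Gins1 had the lowest mean level of the 33. Cdc45, which joins the ring when an origin fires, was at 33.4 to 55.6 TPM and Mcm10, a firing factor unrelated to the ring subunits, at 29.4 to 45.6 TPM. Their differences were 0.10 and -0.01. Gins1 and Gins2 encode 2 of the subunits of the GINS complex. Gins1 was at 16.8, 6.68 and 6.93 TPM in the caudal and 17.1, 11.6 and 13.9 TPM in the yolk sac libraries. Caudal replicates 2 and 3 lay below every yolk sac library, and caudal replicate 1 lay within them. Its log2 difference was -0.55, the lowest of the 33, with an interval of -1.34 to 0.25 and a limma adjusted p of 0.678. Gins2 was at 37.6, 36.9 and 30.3 TPM in the caudal and 34.9, 20.5 and 31.8 TPM in the yolk sac libraries (difference 0.29, adjusted p = 0.742). Of the exon length of Gins2, 67.3% overlaps exons of Gse1 on the opposite strand, and the use of strand in the counting is not given in the sources used here.

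The polymerase and primase genes had the lowest relative values in yolk sac replicate 2, with a median of 0.60 of the other yolk sac libraries over 4 genes. Pola1, the catalytic subunit of the polymerase that makes primers with primase, was at 18.4, 13.02 and 16.3 TPM in the caudal and 19.95, 8.35 and 19.6 TPM in the yolk sac libraries. Its highest 2 values and its lowest value were all from the yolk sac. The difference was 0.08 (interval -0.69 to 0.84) and turned to -0.31 (interval -0.78 to 0.16) without yolk sac replicate 2. Pold1, the catalytic subunit of the lagging strand polymerase, was at 58.1, 48.5 and 34.3 TPM in the caudal and 39.0, 23.2 and 43.7 TPM in the yolk sac libraries. Its difference was 0.42 with an interval of -0.24 to 1.08, and 0.15 without yolk sac replicate 2. Pole, the catalytic subunit of the leading strand polymerase, was at 19.3 to 38.5 TPM, and Prim1, the primase, at 13.6 to 20.1 TPM. Adjusted p by limma was 0.703 to 0.962 for these 4 genes.

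Lig1 and Pcna had the smallest p-values of the 33 genes. Lig1, the ligase that joins Okazaki fragments, was at 64.6, 63.9 and 49.2 TPM in the caudal and 53.5, 23.4 and 34.4 TPM in the yolk sac libraries. Yolk sac replicate 1 lay above caudal replicate 3, and the other yolk sac libraries lay below all caudal ones. The log2 difference was 0.73 (SE 0.29), with an interval of 0.06 to 1.39 and a limma adjusted p of 0.475. It was 0.45 (interval -0.10 to 0.99) without yolk sac replicate 2. Over 19 alternatives its limma adjusted p was 0.0406 to 0.95, and it passed in 1 of them, array weights, where 774 and 182 of all tested genes passed toward caudal and yolk sac cells. Pcna encodes the sliding clamp that holds polymerases on DNA. It was at 136, 151 and 131 TPM in the caudal and 135, 91.9 and 91.2 TPM in the yolk sac libraries. Yolk sac replicate 1 lay within the caudal values and the other 2 lay below them. The difference was 0.41 (SE 0.19, interval -0.03 to 0.85, limma adjusted p = 0.55). Without yolk sac replicate 2 it was 0.32 (adjusted p = 0.726).

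The other 3 genes of the clamp and Okazaki group had differences of -0.14 to 0.12. Fen1, the nuclease that trims Okazaki fragments, was at 56.2, 55.9 and 44.7 TPM in the caudal and 69.9, 49.7 and 54.4 TPM in the yolk sac libraries. Its difference was -0.14, and 84.2% of its exon length overlaps exons of Tmem258 and Gm10143 on the opposite strand. The clamp loader genes Rfc3, at 25.7 to 40.4 TPM, and Rfc4, at 14.8 to 22.7 TPM, differed by 0.12 and -0.05.

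Nucleotide supply genes overlapped between tissues as well. Rrm2, the regulated small subunit of ribonucleotide reductase, which makes deoxynucleotides, was at 123, 118 and 114 TPM in the caudal and 149.9, 124 and 122 TPM in the yolk sac libraries. Yolk sac replicate 1 was high and the other 5 libraries lay close together. The difference was -0.15 (interval -0.51 to 0.20), the narrowest interval of the 33. Rrm1, the large subunit, was at 113, 103 and 93.2 TPM in the caudal and 111, 79.2 and 98.3 TPM in the yolk sac libraries, with a difference of 0.11 (interval -0.30 to 0.52). Tyms, the thymidylate synthase, was at 24.8 to 35.8 TPM and Tk1, the thymidine kinase of dividing cells, at 31.1 to 49.2 TPM. Dut, which removes dUTP from the nucleotide pool, was at 25.7 to 38.0 TPM. Adjusted p by limma of the 5 genes was 0.756 to 0.895.

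Genes of chromatin assembly, histone transcripts and uracil repair also overlapped between tissues. Slbp, which binds the stem-loop of histone mRNAs made in S phase, was at 79.5, 83.4 and 86.5 TPM in the caudal and 108, 59.7 and 98.6 TPM in the yolk sac libraries. Its caudal values lay close together, with yolk sac values on either side of them. Without yolk sac replicate 2, Slbp and Pola1 were the 2 of 33 genes (6.06%) whose yolk sac values all lay above the caudal values, as did 10.2% of all tested genes. None lay the other way, as did 14.7% of all tested genes. Chaf1a and Chaf1b, which encode subunits of the chromatin assembly factor that works with PCNA, were at 32.7 to 55.7 and 10.9 to 22.0 TPM. Their differences were 0.32 and 0.33, and 52.5% of the exon length of Chaf1a overlaps Ubxn6 on the opposite strand. Ung, the uracil-DNA glycosylase, was at 20.4, 21.3 and 19.0 TPM in the caudal and 19.4, 13.8 and 15.3 TPM in the yolk sac libraries (difference 0.32, interval -0.13 to 0.77, limma adjusted p = 0.664).

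**Figure D4:**
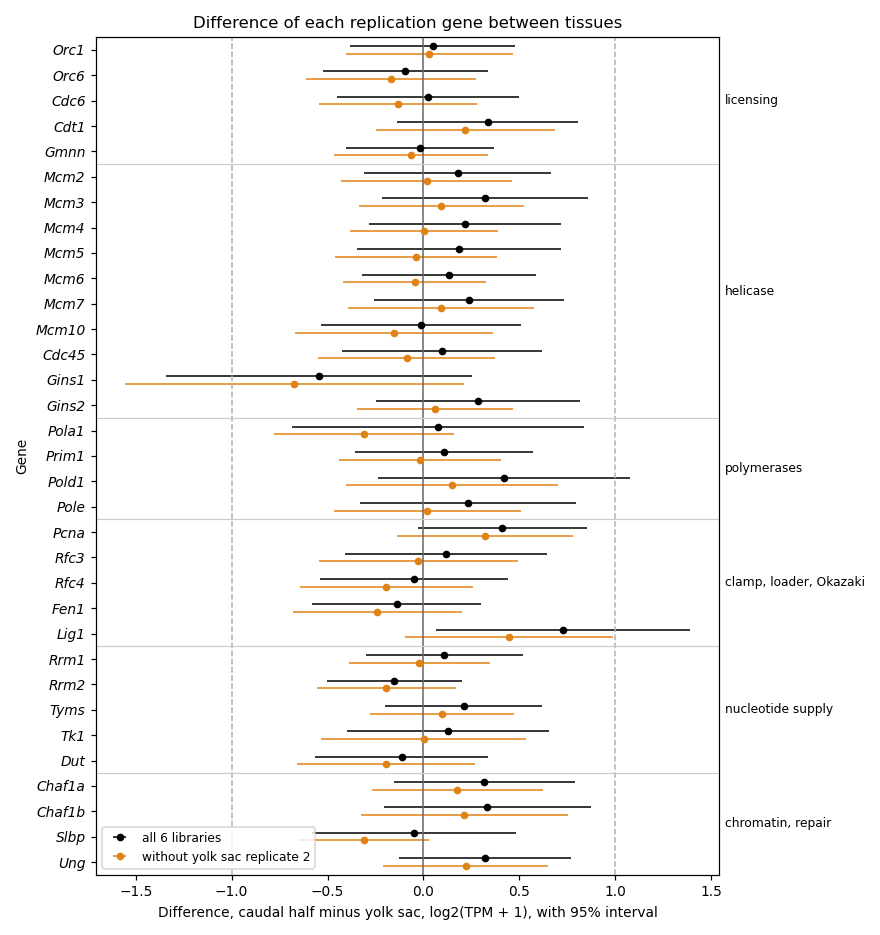
Difference in log2(TPM + 1) of each gene between tissues (positive where caudal is higher) with its 95% limma interval, from all 6 libraries (black) and without yolk sac replicate 2 (orange). Dashed lines mark 2-fold changes, between which the whole interval lies for 30 of 33 genes with all libraries. The share over all tested genes was not computed.

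Several further genes share exon sequence with neighbours on the opposite strand, over 12.7% of the exon length of Rfc4, 10.8% of Orc1, 7.8% of Slbp, 6.9% of Orc6, 6.0% of Cdc45 and 5.8% of Lig1. On GRCm38, Pcna lies on chromosome 2 (132249162 to 132253314), Mcm2 on chromosome 6 (88883474 to 88898780), Lig1 on chromosome 7 (13277283 to 13311433), Cdt1 on chromosome 8 (122568015 to 122573554) and Gins1 on chromosome 2 (150905400 to 150931280).

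The intervals are for the mean difference expected of libraries made like these, and they rest on a spread that may be technical. For 30 of 33 genes the 95% interval of the log2 difference lay wholly between -1 and 1, which is a 2-fold change either way on the log2(TPM + 1) scale. The exceptions were Gins1, Pold1 and Lig1, whose intervals reached -1.34, 1.08 and 1.39. Without yolk sac replicate 2 it held for 32 of 33, Gins1 being the exception with an interval down to -1.56. These intervals are not adjusted for the number of genes. The share of all tested genes with such intervals was not computed, so these counts are not shown to be particular to replication genes. With all 6 libraries, the median distance from a difference to either end of its interval was 0.49 for the 33 genes. Over all tested genes it was 0.58. The ratio of the highest to the lowest of the 6 libraries was 1.22 for Orc1 to 2.75 for Lig1, with a median of 1.59, and a median of 1.39 without yolk sac replicate 2.

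Ratios of genes that work together do not depend on the scaling of a library. For 12 such pairs, chosen after the values were seen and given without a test, 4 had no overlap between tissues, where 25% of all 528 pairs among the 33 genes had none. The ratio of Cdt1 to its inhibitor Gmnn was 0.59, 0.68 and 0.53 in the caudal and 0.50, 0.42 and 0.48 in the yolk sac libraries. The ratio of Rrm2 to Rrm1 was 1.10, 1.14 and 1.22 in the caudal and 1.36, 1.57 and 1.25 in the yolk sac libraries. The lowest yolk sac value of the first pair and the highest of the second were both from yolk sac replicate 2, and for neither ratio did replicates 1 and 3 reach into the caudal range. Lig1 relative to Fen1 was at 1.15, 1.14 and 1.10 in the caudal and 0.77, 0.47 and 0.63 in the yolk sac libraries, with the overlap of Fen1 exons noted above. Of the 32 ratios of Lig1 with another of the 33 genes, 21 had no overlap between tissues, so this was not particular to Fen1. Ung relative to Dut was at 0.58 to 0.74 in the caudal and 0.43 to 0.51 in the yolk sac libraries. Ratios within protein complexes mostly overlapped, as for Chaf1a to Chaf1b, with means of 3.01 ± 0.51 (SD, n = 3) and 3.05 ± 0.23 (SD, n = 3).

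Of 67 other replication genes, including remaining subunits of the origin, polymerase and loader complexes, 0 passed limma's test in either direction, 3 had an unadjusted p under 0.05 and 42 were positive (62.7%, median difference 0.11), beside 9.63% at that p, 62.0% positive and a median of 0.09 over all tested genes. Among those higher in caudal cells the smallest p-values belonged to Cdc7, the kinase that fires origins, and Rnaseh2a, a subunit of the enzyme that removes RNA from DNA. Cdc7 was at 33.3, 26.1 and 25.8 TPM in the caudal and 18.3, 14.0 and 21.9 TPM in the yolk sac libraries, a difference of 0.64 (adjusted p = 0.40). Rnaseh2a differed by 0.46, Orc4 by 0.44 and Msh6, a mismatch repair gene, by 0.39. Lower in caudal than in yolk sac cells were Samhd1, which degrades deoxynucleotides, and Shmt1, which supplies the folate units for thymidylate, with differences of -0.49 and -0.47. Without yolk sac replicate 2, 28 of the 67 genes were positive and 39 negative (41.8% positive, median -0.04). Over all tested genes 52.4% were then positive, with a median of 0.02.

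Of 26 genes that control entry into S phase (E2F factors, retinoblastoma proteins, cyclins and their kinases and inhibitors), 0 passed limma's test, 3 had an unadjusted p under 0.05 and 18 were positive (69.2%, median 0.17), beside the same 9.63%, 62.0% and 0.09 over all tested genes. Cdk4, the most abundant of them, was at 257, 240.1 and 188 TPM in the caudal and 232, 186 and 207 TPM in the yolk sac libraries, which overlapped. Ccnd3, Tfdp1 and Ccna2 were the next, with levels of 56.9 to 132 TPM and differences of 0.05, -0.04 and -0.19. The 3 with the small p-values, named after their values were seen, were Tfdp2, a partner of E2F factors (0.86), Ccnd2, a D-type cyclin (0.99), and E2f2 (0.74). Without yolk sac replicate 2, 16 of the 26 genes were positive (61.5%, median 0.05), beside 52.4% and 0.02 over all tested genes.

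**Figure D5:**
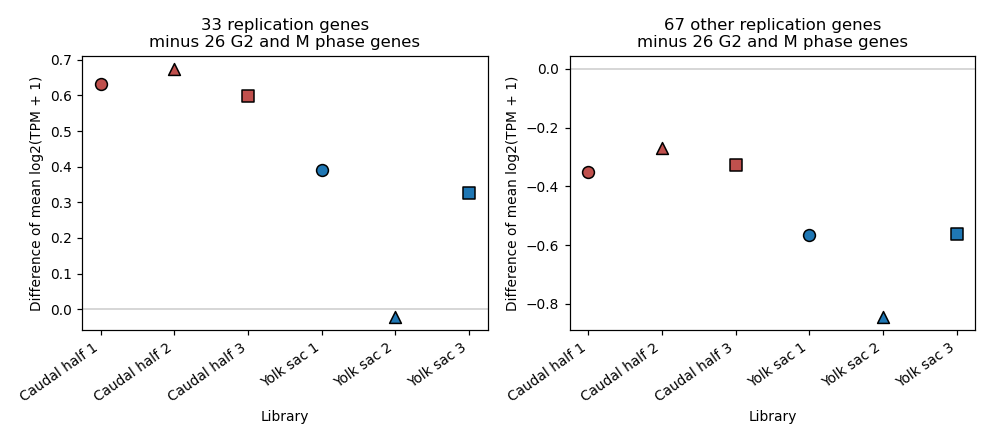
Mean log2(TPM + 1) of the 33 replication genes (left) and of 67 other replication genes (right) minus that of 26 G2 and M phase genes, with 1 point per library. Caudal libraries (red) are at 0.60 to 0.67 and yolk sac libraries (blue) at -0.02 to 0.39 on the left. The G2 and M phase genes alone also separate the tissues, and the 33 replication genes alone do not.

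Set against 26 G2 and M phase genes, the replication genes were higher in each caudal library than in each yolk sac library. The G2 and M genes separated the tissues by themselves. All tested genes were not set against them in this way, so the gap is not shown to be particular to replication genes. The replication genes alone overlapped, with a mean log2(TPM + 1) of 5.37 to 5.74 in the caudal and 5.12 to 5.67 in the yolk sac libraries. The G2 and M genes did not, at 4.77 to 5.11 in the caudal and 5.14 to 5.28 in the yolk sac libraries. For 14 of these 26 genes (53.8%) all yolk sac values lay above the caudal values, as for 4.14% of all tested genes. The mean log2(TPM + 1) of the 33 genes minus that of the G2 and M genes was 0.63, 0.67 and 0.60 in the caudal and 0.39, -0.02 and 0.33 in the yolk sac libraries. For the 67 other replication genes it was -0.35, -0.27 and -0.33 in the caudal and -0.56, -0.85 and -0.56 in the yolk sac libraries. Of the G2 and M genes 0 passed limma's test in either direction, 5 had an unadjusted p under 0.05 and 24 were negative (median -0.21). Positive differences made up 7.69% of this list, beside 62.0% and a median of 0.09 over all tested genes, of which 9.63% had an unadjusted p under 0.05. Without yolk sac replicate 2 all 26 were negative (median -0.24), while the median of the 33 replication genes was -0.02. Yolk sac replicate 2 was at 0.95 of the other yolk sac libraries (median) for the G2 and M genes, 0.76 for the other replication genes and 0.74 for the 33 genes. The 5 genes, named after their values were seen, were Ttk, Birc5, Hmmr, Ube2c and Nusap1, mitotic regulators with differences of -0.94 to -0.51. These are descriptions of lists and carry no test.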

How the data were processed

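RNA of 100 sorted cells was sequenced for each of 6 libraries, 3 caudal and 3 yolk sac. HISAT2 alignment and StringTie quantification on mm10 are named in the submitters' processing notes. Their versions, the annotation release and the use of strand are not stated there. The deposited TPM column holds a signal scaled per library by the authors. In every file unnamed assembled loci sum to 1000000 TPM, and annotated genes add 555230 to 684549 TPM. Only annotated rows were used, and they were summed by symbol after 27 symbols turned into dates had been restored from gene IDs. TPM keeps no read depth, so depth is unknown and counting intervals cannot be given.

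Tissues were compared on log2 values with a pseudocount of 1 by limma (version 3.58.1, R 4.3.3), two-sided and with a trended prior. Of the annotated genes, 16436 reached 1 TPM in 3 or more libraries and were tested, among them all 33 replication genes. Benjamini-Hochberg adjustment ran over all of them, with a threshold of 0.05. The code was tested on simulated data. Exon overlaps come from GENCODE M21 (GRCm38) and promoters from RefSeq. The 33 genes, the other lists and the tests were chosen with earlier results of these data known. All 33 genes are named, as are up to 4 other replication genes in each direction by smallest p and up to 4 of each further list by mean level. Some genes this rule selects are not reported here. Protein sequences were not used here. Alternatives covered pseudocounts, filters, scalings, a replicate block, robust and weighted fits and the omission of each library.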

Additional observations from a re-analysis of the deposited data

How the results depend on the processing

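The call of 0 replication genes in either direction held in 18 of 19 alternatives, and with array weights 1 gene, Lig1, was called higher in caudal cells. Each of the 33 differences was recomputed 19 times. Of these 627 values 576 kept sign and call, 1 became a call and 50 changed sign, all in genes that were not called, so those signs carry no direction. The causes were not tested. The median difference was -0.02 to 0.27 over the libraries left out. Sign changes were, with quantile normalization, Cdc6 -0.015 and Gmnn 0.0046; with median centring, Orc1 -0.042, Cdc6 -0.065 and Pola1 -0.014; with annotated genes rescaled to 1000000 TPM, Gmnn 0.011 and Mcm10 0.017; and with array weights, Cdc6 -0.11 and Pola1 -0.41. With 1 library left out the lowest and highest differences were Orc1 -0.037 and 0.098, Orc6 -0.23 and 0.0022, Cdc6 -0.13 and 0.13, Gmnn -0.12 and 0.058, Mcm5 -0.040 and 0.35, Mcm6 -0.046 and 0.27, Mcm10 -0.19 and 0.13, Cdc45 -0.088 and 0.27, Pola1 -0.31 and 0.27, Prim1 -0.019 and 0.19, Rfc3 -0.026 and 0.30, Rfc4 -0.19 and 0.099, Rrm1 -0.022 and 0.22, Dut -0.19 and 0.038, Slbp -0.31 and 0.11.

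Alternatives chosen after seeing the data left out yolk sac replicates 1 and 2 together, where the lone yolk sac library is assumed to vary like the caudal ones (Cdc6 -0.077, Gmnn 0.042, Pola1 -0.30, Rfc3 -0.13), or centred medians without yolk sac replicate 2 (Orc1 -0.018, Cdc6 -0.18, Mcm2 -0.032, Mcm4 -0.045, Mcm5 -0.089, Mcm6 -0.095, Cdc45 -0.14, Pola1 -0.36, Prim1 -0.068, Pole -0.028, Rfc3 -0.075, Rrm1 -0.071, Tk1 -0.048). In the latter 22 of 33 genes were negative.

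Counts over all tested genes, 57 higher in caudal and 6 in yolk sac cells, were 37 and 2 with a pseudocount of 5, 1 and 0 without a filter, 8 and 0 with a mean of at least 10 TPM, and 774 and 182 with array weights. They were 13 and 0 without yolk sac replicates 1 and 2, and 63 and 15 with centring and no yolk sac replicate 2. Leaving out each library gave 2 to 55 and 0 to 6. With the replicate block 0 and 0 genes passed by limma, with 1611 at an unadjusted p under 0.05. The block left each replication gene uncalled. Same-numbered libraries did not deviate together (correlations 0.019, -0.021 and -0.0032 across genes), so the numbers were not taken as pairs, and 1 caudal library of 3 correlated best with its own number. No depth is known, and 3 libraries a tissue limit the precision.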
